A study of Mus musculus with 15 samples.

Results

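The collagen genes were followed in whole mouse hearts over the first hours after aldosterone. All probe sets annotated with a single symbol of the form Col, a number, a and a number were taken, which gave 82 probe sets for 42 genes, out of 45101 probe sets and 18194 genes with a single symbol on the array. Each gene was represented by its probe set with the highest mean signal. Of the 42 genes, 25 had a mean signal of at least 526.7, the median of all signals, and entered the tests among 22286 probe sets.

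The series holds 15 arrays of total RNA from frozen whole hearts, hybridised to Affymetrix Mouse430_2 arrays, on which each gene is read by 1 or more probe sets near the 3′ end of its transcript. The aldosterone group had 7 arrays, 1 each at 0.5, 1, 2, 3, 4, 5 and 12 h. The control group had 7 arrays at the same times, and 1 further control array at 0 h came from the group without injection. Aldosterone is the adrenal steroid that activates the mineralocorticoid receptor. The labels give no strain, age, sex or dose, do not say what the timed controls received, and do not say whether an array held 1 heart or a pool. With 1 array per arm and time, the 7 times serve as replicates of the aldosterone comparison, and the p-values measure only the spread between these arrays, which may be technical.

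Collagens are secreted proteins whose alpha chains wind into rope-like helices. The fibrillar collagens (types I, III and V, with the minor type XXVII) build the tensile fibres of the cardiac interstitium and are made mainly by fibroblasts. Type IV collagen forms the sheet-like network of basement membranes around cardiomyocytes and capillaries, and types XV and XVIII are proteoglycan-type collagens of the same zone. Type VI forms beaded microfibrils that link fibres to cells, type VIII is a short-chain network collagen of vessels, and the FACIT types (such as XII, XIV, XVI and XX) attach to the surface of fibrils. Prolonged aldosterone excess with salt is known to increase fibrillar collagen in rodent hearts.

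Promoter sequences are shown for Col1a2 and Col3a1, fibrillar genes whose levels varied together across the arrays, and for Col5a3, the collagen with the smallest p over time. In the RefSeq annotation of GRCm38.p6, Col1a2 spans chr6:4505618-4541543, Col3a1 chr1:45311538-45349706 and Col5a3 chr9:20770050-20815117. Col5a2 (chr1:45374331-45503282) lies near Col3a1, and Col4a1 (chr8:11198423-11312889) overlaps the edge of Col4a2 (chr8:11312805-11449287). RefSeq promoter sequences of the same build covered 33 of the 42 genes. The windows are the 250 bases upstream of the start listed first for each gene, 5′ to 3′ on the gene's strand, at chr6:4505368-4505617 (plus strand) for Col1a2, chr1:45311288-45311537 (plus strand) for Col3a1 and chr9:20815068-20815317 (minus strand) for Col5a3. Capitals mark CCAAT, the CCAAT box letters.
Col1a2: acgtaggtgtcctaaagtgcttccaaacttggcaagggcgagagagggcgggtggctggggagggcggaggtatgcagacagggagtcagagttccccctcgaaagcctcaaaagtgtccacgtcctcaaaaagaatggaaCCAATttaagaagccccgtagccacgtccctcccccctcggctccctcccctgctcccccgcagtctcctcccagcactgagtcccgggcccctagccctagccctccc
Col3a1: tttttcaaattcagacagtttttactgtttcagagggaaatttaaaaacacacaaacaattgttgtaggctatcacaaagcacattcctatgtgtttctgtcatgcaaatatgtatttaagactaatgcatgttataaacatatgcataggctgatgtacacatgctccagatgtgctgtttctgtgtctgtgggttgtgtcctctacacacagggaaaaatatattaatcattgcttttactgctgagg
Col5a3: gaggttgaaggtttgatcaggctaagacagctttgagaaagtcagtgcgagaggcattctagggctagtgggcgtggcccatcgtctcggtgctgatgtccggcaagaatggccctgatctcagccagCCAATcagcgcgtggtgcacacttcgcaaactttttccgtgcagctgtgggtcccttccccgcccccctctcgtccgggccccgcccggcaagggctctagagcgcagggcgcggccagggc
The start used for Col5a3 differs from the end of the gene span given above, so the last 50 bases of its window lie inside that span. Counted from the starts used, CCAAT begins 109 bases before the start of Col1a2 and 122 bases before that of Col5a3. The Col3a1 window holds no CCAAT, and the TATA box letters TATAAA begin 117 bases before its start. Searched on both strands (CCAAT or ATTGG), the CCAAT letters were in 12 of 33 collagen promoters (36.4%), against 34.5% of all 27025 promoters. TATAAA or TTTATA was in 5 of 33 (15.2%), against 13% of all promoters, and these motifs do not overlap in the windows shown. The hexamer of the steroid receptor site, TGTTCT or AGAACA, was in 2 of 33 (6.06%; Col20a1 and Col9a1), against 16.2% of all promoters. These matches describe letters only.

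The 25 tested genes comprised 7 of 11 fibrillar, 7 of 8 basement membrane, 3 of 5 type VI, 2 of 4 short-chain or anchoring, 5 of 9 FACIT, and 1 of 5 transmembrane and other genes. The other 17 had mean signals between 36.5 (Col9a2) and 518.3 (Col4a3) and were not tested. Col4a3 and Col6a4 (508.5) lay just under the minimum, and Col7a1 (631.0) and Col4a6 (794.0) just above it. The cartilage collagen Col2a1 was among the untested genes, with a mean signal of 233.0. Also below the minimum were Col11a1, Col11a2, Col24a1, Col6a5, Col8a2, Col10a1, Col9a3, Col19a1, Col22a1, Col13a1, Col17a1, Col23a1 and Col26a1.

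Facts of the arrays that touch the collagens are as follows. The heart label was checked on 8 cardiomyocyte markers, whose summed signal lay between 1584727 and 2593809 on all 15 arrays. The summed signal of 7 lung epithelium markers was 442730 on the aldosterone 1 h array and 191266 on the control 1 h array, and at most 5820 on the other arrays. The summed signal of 5 atrial markers spanned 46531 (control, 0.5 h) to 495490 (control without injection), and that of the fat markers 1088 (aldosterone, 5 h) to 53337 (control, 2 h). The log2 ratio of 3′ to 5′ Gapdh signal, a sign of RNA quality, ran between −0.23 and 3.92. Arrays were scanned on 3 days, each of which held both arms of its times. The 0.5 and 3 h pairs shared the first day, the 1, 4 and 12 h pairs the second, and the 2 and 5 h pairs the third with the array without injection. Both arms of a time also had the same station entry, except at 5 h, with station 1 for aldosterone and 2 for control. Its part in the 5 h values was not tested.

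Fibrillar collagen levels are given as log2 of the quantile-normalised signal plus 167.8, as lowest, median and highest of 7 arrays. Col3a1, the type III chain, had 14.18, 14.62 and 15.13 on aldosterone arrays, against 14.02, 14.45 and 14.75 on control arrays, so the arms overlapped over most of their range. The aldosterone arrays were highest at 1 h (15.13) and 3 h (14.92), and 12 h was their lowest time. Col1a2, the alpha-2 chain of type I, had 13.26, 13.76 and 14.22 on aldosterone arrays, against 13.19, 13.71 and 14.12 on control arrays. Its lowest array in both arms was at 5 h. Col1a1, the alpha-1 chain of type I, had 12.20, 12.80 and 13.72 on aldosterone arrays, against 12.09, 12.97 and 13.29 on control arrays. The aldosterone median was here the lower one, and the 1 h aldosterone array was the highest of the 14.

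The type V chains, which set the width of fibrils, also overlapped between arms. Col5a1 had 11.18, 11.61 and 12.03 on aldosterone arrays and 11.30, 11.62 and 11.99 on control arrays. Col5a2 had 11.55, 11.73 and 12.37 on aldosterone arrays and 11.36, 11.69 and 12.22 on control arrays. In both genes the top value of the aldosterone arm fell at 1 h and that of the control arm at 12 h. Col5a3 had 10.47, 11.10 and 11.86 on aldosterone arrays and 10.26, 11.33 and 11.68 on control arrays, with its lowest value at 12 h and its highest at 2 h in both arms. Col27a1 had 9.93, 11.01 and 11.18 on aldosterone arrays and 9.43, 11.02 and 11.36 on control arrays.

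**Figure D1:**
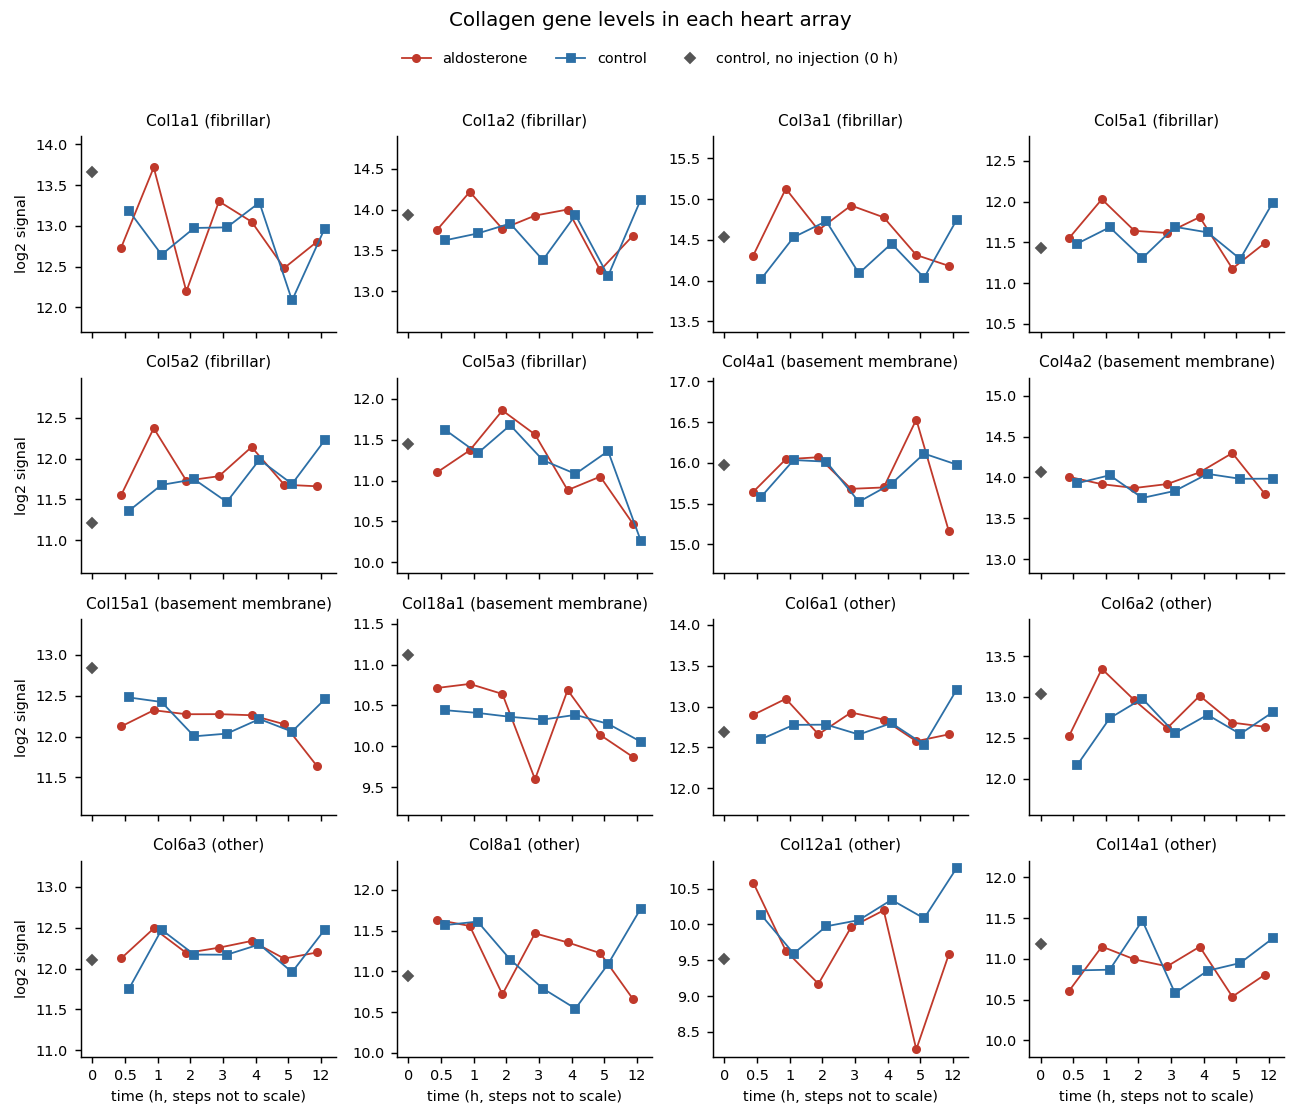
Log2 signal of 16 collagen genes (vertical axis, a separate scale per panel) against time in hours (steps not to scale), with 1 point per array: aldosterone in red circles, timed controls in blue squares, and the control without injection as a grey diamond at 0 h. The arms overlap in all 16 panels, Col3a1 is highest on the aldosterone 1 h array (15.13), and both 12 h arrays of Col5a3 (10.47 and 10.26) lie under all its other points.

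In the basement membrane collagens the arms overlapped as well. Col4a1, a chain of the ubiquitous type IV network, had 15.16, 15.70 and 16.53 on aldosterone arrays, against 15.52, 15.98 and 16.11 on control arrays. Both its extremes were aldosterone arrays, the highest at 5 h and the lowest at 12 h. Col4a2, which joins Col4a1 in the same trimer, had 13.80, 13.92 and 14.30 on aldosterone arrays, against 13.75, 13.98 and 14.04 on control arrays. It too was highest on the aldosterone 5 h array. Col4a4 had 9.83, 10.29 and 11.10 on aldosterone arrays and 9.87, 10.42 and 11.08 on control arrays. Col4a5 stayed between 11.65 and 12.11 on all 14 timed arrays, the least spread among the tested collagens (SD 0.12). Col4a6 had 8.45, 9.92 and 10.50 on aldosterone arrays and 9.20, 9.84 and 10.45 on control arrays.

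The proteoglycan-type collagens of the basement membrane zone each had their lowest value in the aldosterone arm. Col15a1 had 11.64, 12.26 and 12.32 on aldosterone arrays, against 12.00, 12.21 and 12.48 on control arrays, and its low value was at 12 h. Col18a1, whose C-terminal fragment is endostatin, had 9.59, 10.64 and 10.76 on aldosterone arrays, against 10.06, 10.36 and 10.44 on control arrays. Its low value was at 3 h. In 5 of 7 fibrillar and 4 of 7 basement membrane genes the highest of the 14 timed arrays was aldosterone 1 h. In 3 of 7 basement membrane genes the lowest was aldosterone 12 h. The shares of all probe sets with these extreme arrays were not counted, so these counts do not set the collagens apart.

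The type VI chains and the network and FACIT collagens overlapped between arms as well. Col6a1 had 12.57, 12.84 and 13.09 on aldosterone arrays, against 12.53, 12.77 and 13.21 on control arrays. Col6a2 had 12.53, 12.69 and 13.34 on aldosterone arrays, against 12.16, 12.74 and 12.98 on control arrays. Col6a3 had 12.12, 12.20 and 12.49 on aldosterone arrays, against 11.75, 12.17 and 12.48 on control arrays. The lowest control array of both Col6a2 and Col6a3 was at 0.5 h. Col8a1 had 10.66, 11.36 and 11.63 on aldosterone arrays, against 10.54, 11.15 and 11.77 on control arrays. Its control arrays were lowest at 3 and 4 h (10.79 and 10.54) and highest at 12 h. Col14a1 had 10.54, 10.91 and 11.15 on aldosterone arrays, against 10.58, 10.87 and 11.47 on control arrays. Col12a1 had 8.25, 9.63 and 10.59 on aldosterone arrays, against 9.59, 10.09 and 10.79 on control arrays, and the aldosterone 5 h array (8.25) lay well under the rest. The SD over the 14 timed arrays had a median of 0.35 for the tested collagens and 0.30 for all probe sets tested.

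The first comparison asked whether aldosterone changed collagen transcripts over all 7 times. No tested collagen passed the test, and no probe set of the array did (0% of 22286; limma with time as a block, Benjamini-Hochberg adjusted p under 0.05). At an unadjusted p under 0.05 there were 0 of 25 collagens and 988 of all probe sets (4.43%). Differences (aldosterone minus control, log2) were above 0 for 17 of 25 collagens with a median of 0.04, against 51.5% and a median of 0.01 for all probe sets. Fibrillar genes were above 0 in 6 of 7 (median 0.11) and basement membrane genes in 3 of 7 (median −0.02). Of 12 fibroblast markers without collagens 9 were above 0 (median 0.11), and 10 of 12 were in both the early window (median 0.19) and the later one (median 0.20). Their part in the collagen differences was not tested.

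By gene, Col3a1 averaged 14.61 ± 0.35 on aldosterone arrays and 14.37 ± 0.32 on control arrays (SD, n = 7 each). The difference was 0.23 ± 0.13 (SE; limma adjusted p = 0.975), with the aldosterone array higher at 5 of 7 times. Col1a2 differed by 0.12 ± 0.11 and Col6a2 by 0.17 ± 0.10, each higher at 5 of 7 times. Without the 1 h pair Col6a2 differed by 0.0992. Col1a1 differed by 0.02 ± 0.18, with the aldosterone array higher at 3 of 7 times. Its value turned to −0.15 without the 1 h pair. Col4a1 differed by −0.02 ± 0.11 and Col4a2 by 0.05 ± 0.07, which was 0.000875 without the 5 h pair.

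The smallest unadjusted p-values belonged to FACIT genes. Col12a1 averaged 9.63 ± 0.76 on aldosterone arrays and 10.14 ± 0.37 on control arrays (SD, n = 7 each), a difference of −0.51 ± 0.25 (limma adjusted p = 0.975) with the aldosterone array higher at 2 of 7 times. Without the 5 h pair it was −0.29. The next Col12a1 probe set, with a mean signal of 470.9 and so not tested, went the other way, with a mean difference of 0.27. At 5 h that probe set gave 0.64 and the main one −1.83. The weaker Col12a1 probe sets, with mean signals of 162.5 and 103.5, gave −0.32 and −0.46. Col20a1 averaged 10.28 ± 0.66 on aldosterone arrays and 9.67 ± 0.57 on control arrays, a difference of 0.60 ± 0.32, higher at 6 of 7 times. Without the 1 h pair it was 0.97 and still missed the threshold (adjusted p = 1.00). The next Col20a1 probe set, with a mean signal of 463.5 and so not tested, went the other way, with a mean difference of −0.20. At 3 h that probe set gave −1.13 and the main one 1.59. The weaker Col20a1 probe sets, with mean signals of 130.3 and 125.6, gave 0.28 and 0.13.

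The intervals bound what these arrays allow. For 23 of 25 collagens the 95% interval of the overall difference lay within 2-fold either way (97% of all probe sets), and for 19 within 1.5-fold (75.8% of all probe sets). The exceptions to the 2-fold bound were Col20a1, with an interval of −0.09 to 1.30, and Col12a1, with one of −1.05 to 0.03. For Col3a1 the interval was −0.05 to 0.52, for Col1a2 −0.12 to 0.35, for Col1a1 −0.36 to 0.40 and for Col4a1 −0.26 to 0.22. The windows of fewer hours were bounded less. Over 0.5 to 2 h, 21 of 25 intervals lay within 2-fold (82.2% of all probe sets) and 12 within 1.5-fold (38%). Over 3 to 5 h these were 20 of 25 (86.2% of all probe sets) and 12 (47%).

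**Figure D2:**
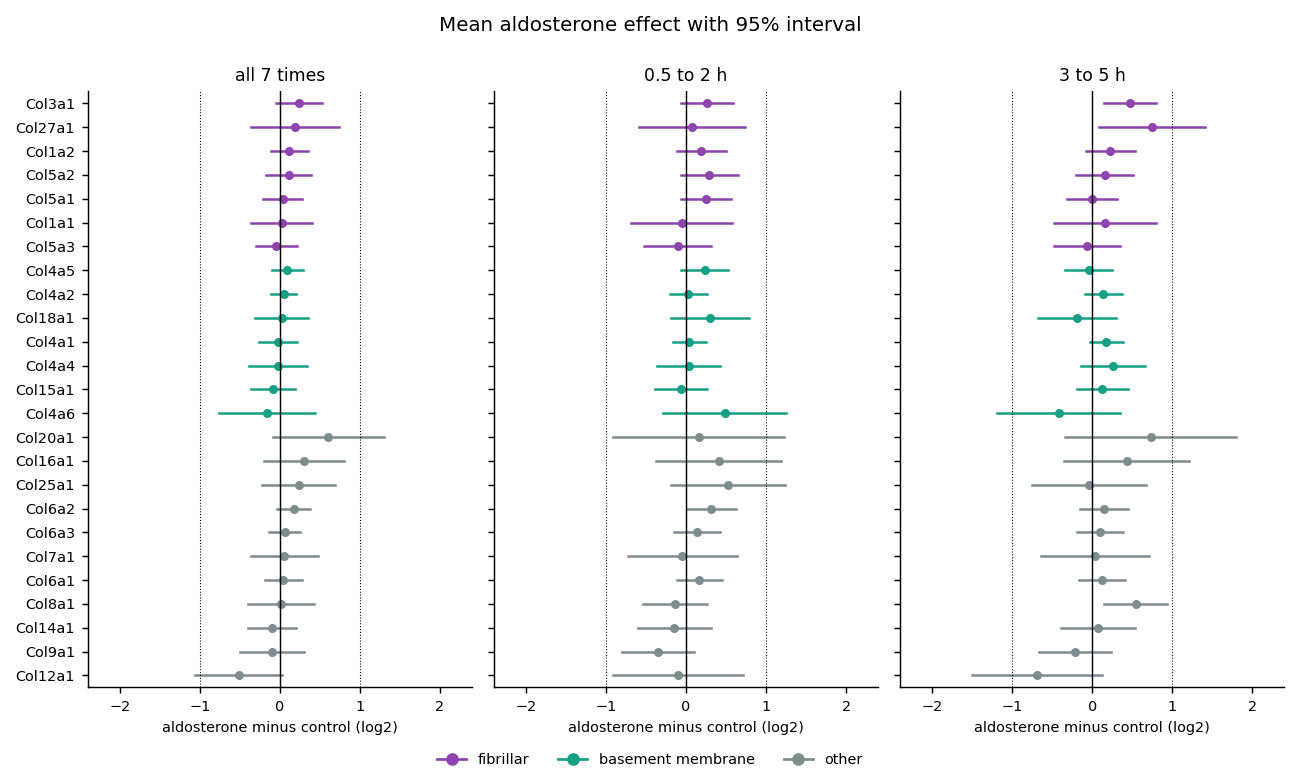
Mean log2 difference, aldosterone minus control, with its 95% interval (horizontal axis) for each of the 25 tested collagens (rows, coloured by type), over all 7 times, over 0.5 to 2 h and over 3 to 5 h. Dotted lines mark a 2-fold difference either way. In the left panel 23 of 25 intervals lie between the dotted lines and all include 0. In the right panel the intervals of Col3a1, Col8a1 and Col27a1 lie above 0 before adjustment, and none passed after it.

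Split into early and later hours, the differences again called no collagen and no probe set. Over 0.5 to 2 h (3 pairs) 0% of probe sets were called, and 1 of 25 collagens had an unadjusted p under 0.05, against 2280 of all probe sets (10.2%). That gene was Col6a2, which had 12.53, 13.34 and 12.96 on aldosterone arrays at 0.5, 1 and 2 h, against 12.16, 12.74 and 12.98 on control arrays. It was higher at 0.5 and 1 h and level at 2 h, a mean difference of 0.32 ± 0.14 (SE, n = 3 pairs; limma adjusted p = 0.482). Its second probe set gave −0.23 for the same hours, and without the 1 h pair the first gave 0.17. Col5a2 differed by 0.29, Col3a1 by 0.26 and Col4a5 by 0.23. Without the 1 h pair, Col5a2 differed by 0.0868, Col3a1 by 0.0905 and Col4a5 by 0.18.

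Over 3 to 5 h (3 pairs) 0% of probe sets were called. Unadjusted p-values under 0.05 came from 3 of 25 collagens, all higher with aldosterone, against 736 of all probe sets (3.30%). Col3a1 had 14.92, 14.78 and 14.31 on aldosterone arrays at 3, 4 and 5 h, against 14.09, 14.45 and 14.04 on control arrays. The aldosterone array was the higher at each of these times, by 0.48 ± 0.15 on average (limma adjusted p = 1.00, unadjusted p = 0.0082). Its second probe set gave 0.47 ± 0.23, and without the 3 h pair the first gave 0.30.

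Col8a1 had 11.47, 11.36 and 11.22 on aldosterone arrays at 3, 4 and 5 h, against 10.79, 10.54 and 11.09 on control arrays. The difference was 0.54 ± 0.18 (limma adjusted p = 1.00), most of it at 3 and 4 h, and its second probe set gave 0.41. Col27a1 had 11.18, 11.12 and 10.77 on aldosterone arrays, against 11.36, 9.43 and 10.05 on control arrays. Its difference of 0.74 ± 0.30 rested on the low control array at 4 h: it was 0.27 without that pair and 1.21 without the 3 h pair. Col12a1 had 9.96, 10.20 and 8.25 on aldosterone arrays, against 10.06, 10.34 and 10.09 on control arrays. The difference was −0.69 ± 0.37, and −0.12 without the 5 h pair. Its next probe set, which was not tested, was higher with aldosterone at 3, 4 and 5 h (0.23, 0.60 and 0.64).

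Col1a1 and Col1a2 depended on the probe set in these hours. The main probe set of Col1a2 gave 0.23 ± 0.14 over 3 to 5 h and its second 0.64 ± 0.19 (limma adjusted p = 1.00 for both). For Col1a1 the values were 0.16 ± 0.29 and 0.50 ± 0.15. Over 0.5 to 2 h Col1a1 gave −0.05 ± 0.29 with its main probe set and 0.42 ± 0.15 with the second (adjusted p = 0.431). Among all 12 further tested probe sets, of 11 genes, 9 had the same direction as the main one over 7 times. The 3 opposite ones were a second probe set of Col18a1 (−0.28 against 0.02), of Col5a1 (−0.05 against 0.04) and of Col6a2 (−0.15 against 0.17). Pair by pair the agreement was weaker. For Col3a1 both probe sets had the same sign in 7 of 7 pairs, and for Col18a1, Col1a2 and Col4a1 in 5. The sign was the same in 4 of 7 pairs for Col1a1, Col14a1, Col6a2 and Col8a1, and in 3 for Col4a5. For Col27a1 it was the same in 2 of 7, and for the 2 further probe sets of Col5a1 in 3 and 2.

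The later minus the earlier aldosterone difference was tested directly and called 0% of probe sets. Unadjusted p-values under 0.05 came from 1 of 25 collagens and 1493 of all probe sets (6.70%). The collagen was Col8a1, with a later minus earlier difference of 0.68 ± 0.25 (limma adjusted p = 0.737). Col4a6 had −0.90 ± 0.49, which ranged from −1.39 (0.5 h pair left out) to −0.52 (2 h pair left out). Col27a1 had 0.67, which ranged from 0.20 (4 h pair left out) to 1.13 (3 h pair left out). Col18a1 had −0.49, which ranged from −0.73 (4 h pair left out) to −0.22 (3 h pair left out). The second probe set of Col18a1 differed by 0.71, 0.21 and −2.31 at 0.5, 1 and 2 h, and by 0.70, 0.79 and −1.42 at 3, 4 and 5 h. The slope over 0.5 to 5 h also did not differ between arms for any probe set (0% called). Unadjusted p-values under 0.05 came from 1 of 25 collagens, against 745 of all probe sets (3.34%). The gene was Col12a1 (−0.34 ± 0.14 per h, adjusted p = 0.999), and its value was −0.13 per h without the 5 h pair.

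Single times had no replicate and carry no test, and the 1 h and 12 h pairs are described because whole classes leaned one way there, a choice made after their values were seen. At 1 h the aldosterone array was the higher for 7 of 7 fibrillar genes (median difference 0.51), against 51.4% of all probe sets. Col1a1 differed there by 1.07, Col5a2 by 0.69, Col3a1 by 0.59 and Col1a2 by 0.51, while Col27a1 differed by 0.00 and Col5a3 by 0.04. The same array also carried the largest lung marker sum, 442730 against 191266 on the control 1 h array. Its summed signal of 12 fibroblast markers without collagens was 288930, against 210966 on the control array. The atrial marker sum was 403233, against 203223, and the fat marker sum 51963, against 21725. Its Gapdh ratio was 3.31, against 0.78. The part of these in the 1 h differences was not tested, and in whole tissue, more cells of a type and more RNA per cell cannot be told apart.

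At 12 h most collagens were lower with aldosterone. The aldosterone array was the lower for 6 of 7 fibrillar genes (median difference −0.49), for 6 of 7 basement membrane genes (median −0.81) and for 19 of 25 collagens, against 49.4% of all probe sets. Col4a1 had 15.16 with aldosterone and 15.98 in the control, Col4a4 9.83 and 10.88, Col15a1 11.64 and 12.45, Col8a1 10.66 and 11.77, and Col3a1 14.18 and 14.75. The exceptions among the fibrillar and basement membrane genes were Col5a3 (0.21) and Col4a5 (0.08). The summed fibroblast marker signal was 232208 on the aldosterone 12 h array, against 312608 on the control 12 h array, and the Gapdh ratio 2.50, against 3.92. The atrial marker sum was 390734 with aldosterone and 423142 in the control, and the fat marker sum 21528 and 24832. The part of these in the 12 h differences was not tested. Lung markers were low on both arrays (1625 and 2476). Without the 12 h pair the overall difference was 0.37 for Col3a1, 0.21 for Col1a2 and 0.11 for Col4a1, and none of these was called. Without the 3 h pair it was 0.14 for Col3a1 and 0.0446 for Col1a2.

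**Figure D3:**
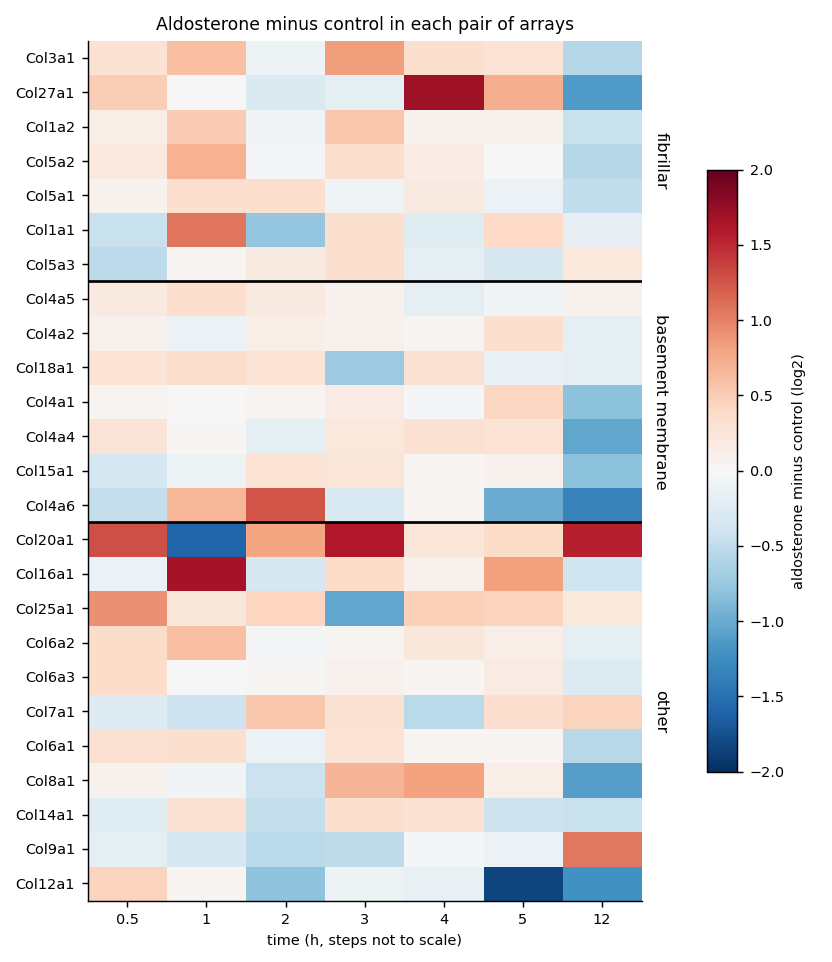
Aldosterone minus control log2 difference in each of the 7 pairs (columns, hours, steps not to scale) for the 25 tested collagens (rows, by type and in order of their mean difference). Red is higher with aldosterone and blue lower. The 1 h column is red or near 0 for all 7 fibrillar genes, and the 12 h column is blue for 19 of 25 genes.

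**Figure D4:**
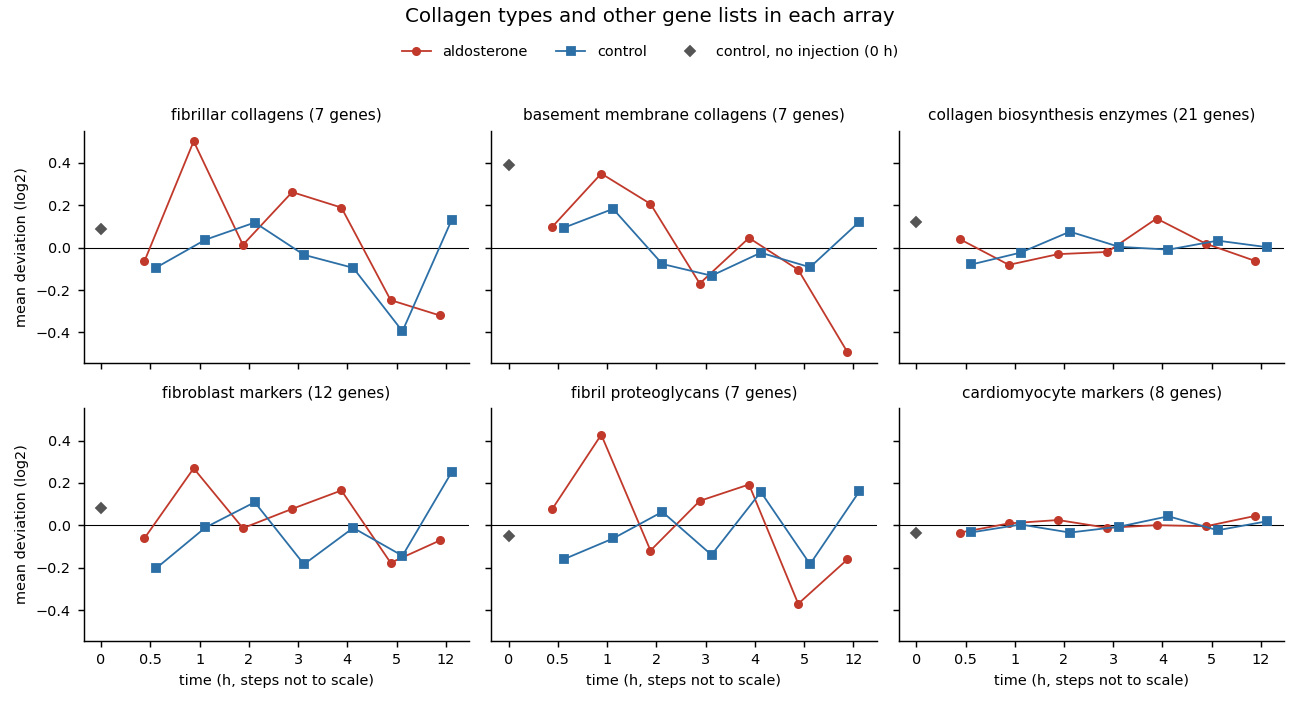
Mean log2 deviation from the average of the 14 timed arrays (vertical axis) in each array over time in hours (steps not to scale), for the fibrillar and basement membrane collagens and 4 other gene lists, aldosterone in red circles, timed controls in blue squares, and the control without injection as a grey diamond. Fibrillar collagens reach 0.50 on the aldosterone 1 h array and −0.32 on the aldosterone 12 h array, fibroblast markers reach 0.27 and −0.07 on the same arrays, and cardiomyocyte markers stay within 0.05 of 0 on all arrays. Quantile normalisation holds very high signals near the same values, so the flat cardiomyocyte panel does not measure the share of cardiomyocytes.

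Averaged over its members, the fibrillar class lay 0.50 above the mean of the timed arrays on the aldosterone 1 h array, 0.26 above it at 3 h and 0.19 at 4 h, against 0.04, −0.03 and −0.10 on the control arrays of these times. Both 5 h arrays were low (−0.25 with aldosterone and −0.39 in the control). The basement membrane class lay at 0.35 on the aldosterone 1 h array and at −0.49 on the aldosterone 12 h array, against 0.18 and 0.12 in the controls. Cardiomyocyte markers stayed within 0.05 of their mean. Their signals are very high, and quantile normalisation holds the highest signals near the same values on every array. This flatness therefore does not measure the share of cardiomyocytes, and their deposited summed signal ran between 1584727 and 2593809.

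Differences between the 7 times, over both arms, were then tested. No collagen was called, while 429 probe sets were (1.92%). An unadjusted p under 0.05 was seen for 4 of 25 collagens and 4201 of all probe sets (18.9%). Col5a3, a type V chain, came nearest (limma adjusted p = 0.0596). Its time means were 11.36, 11.35, 11.77, 11.41, 10.98, 11.20 and 10.37 at 0.5, 1, 2, 3, 4, 5 and 12 h, a range of 2.64-fold. The 2 h mean was highest and the 12 h mean lowest. The adjusted p was 0.0463 with the deposited scaling, 0.318 without the 12 h pair and 0.26 with scan day as a block. Col4a1 (adjusted p = 0.179) had its highest mean at 5 h (16.32) and its lowest at 12 h (15.57), and its adjusted p was 0.0385 without the 12 h pair. Col6a2 (adjusted p = 0.195) had a low 0.5 h mean of 12.34 and a high 1 h mean of 13.04. Col1a2 (adjusted p = 0.221) was lowest at 5 h (13.22).

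A straight trend over 0.5 to 5 h was called for 34 probe sets (0.153%) and for no collagen. The slope was below 0 for 19 of 25 collagens (median −0.06 per h), whereas 54.7% of all probe sets sloped upward. Unadjusted p-values under 0.05 came from 3 collagens, all sloping downward, against 2043 of all probe sets (9.17%). Col4a4 had −0.20 ± 0.05 per h (limma adjusted p = 0.17), with 11.10 at 1 h and 10.13 at 5 h on aldosterone arrays, and 11.08 and 9.87 on control arrays. Its slope was −0.14 with the 1 h pair left out and −0.26 with the 0.5 h pair left out. Both 1 h arrays carried lung transcripts, and the other timed arrays had at most 10.88. The part of lung tissue in this slope was not tested. Col4a6 had −0.23 ± 0.08 per h, which was −0.13 without the 5 h pair. Col9a1 had −0.13 ± 0.05 per h, which was −0.0828 with the 4 h pair left out and −0.22 with the 5 h pair left out. These fits count both arrays of a time as separate samples, so their SE may be too small.

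The 12 h arrays were set against the 12 arrays of 0.5 to 5 h. Of all probe sets 14 were called (0.0628%), and no collagen. Unadjusted p-values under 0.05 came from 1 of 25 collagens, against 2078 of all probe sets (9.32%). Col5a3 had 10.47 with aldosterone and 10.26 in the control at 12 h, and 10.88 to 11.86 on the earlier arrays, without overlap. The difference was −0.98 ± 0.22 (limma adjusted p = 0.125), and −0.80 with scan day as a block (adjusted p = 0.501). It was the 1 of 25 collagens with both 12 h arrays under all 12 earlier ones, which 1.83% of all probe sets showed, and 0 of 25 had both above them (2.71% of all probe sets). Basement membrane genes were below 0 in 7 of 7 cases (median −0.17), while 52.9% of all probe sets were above 0. Among them were Col18a1 at −0.43 ± 0.24 and Col4a1 at −0.32, and none of the 7 passed the test. The control 12 h values of 6 of these 7 were above those of the aldosterone arm. As a class mean, the deviation from the timed arrays was 0.12 on the control 12 h array, inside the −0.13 to 0.18 of the earlier controls. It was −0.49 on the aldosterone 12 h array, so the class mean was low at 12 h in the aldosterone arm only. The second probe set of Col18a1 was not lower at 12 h. It had 9.87 with aldosterone and 10.52 in the control, and 8.19 to 10.50 on the earlier arrays.

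The control array without injection, a single array, gives a level only. It was outside the range of the timed arrays for 4 of 25 collagens. Col15a1 spanned 11.64 to 12.48 on the 14 timed arrays and had 12.84 without injection, Col18a1 spanned 9.59 to 10.76 and had 11.12, and Col4a6 spanned 8.45 to 10.50 and had 10.68. Those 3 of 25 above the range compare with 13.7% of all probe sets. Col5a2 was below it, with 11.36 to 12.37 on the timed arrays and 11.21 without injection, 1 of 25 against 15.6% of all probe sets. Both shares are near or under those of the whole array. The second probe set of Col18a1 lay inside its timed range (8.19 to 10.52), with 9.77 without injection.

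Of the 3 fibrillar genes compared with Col3a1 from array to array, Col1a2 and Col5a2 varied with it. The main probe set of Col1a1 did not pass the test, and its second probe set was not compared. Col3a1 was set against 13 other measures over the 14 timed arrays, which share times and scan days, with 100000 permutations each. With Col1a2 the correlation was r = 0.82 (permutation p = 0.00031, adjusted 0.000858) and rho = 0.85 (permutation p = 0.00023, adjusted 0.00078). Without the arrays farthest from the Col3a1 median (aldosterone 1 h and control 0.5 h) r was 0.80, and within the second scan day r was 0.88 over 6 arrays. The other scan days held too few arrays. Col5a2 had r = 0.79 and rho = 0.85 (adjusted permutation p = 0.00149 and 0.00078), 0.63 without the same arrays and 0.88 within the second day. Col6a2 had r = 0.81 and rho = 0.79 (adjusted permutation p = 0.000858 and 0.00219), 0.66 without them and 0.93 within the day.

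For the main probe set of Col1a1 the correlation with Col3a1 did not pass the test. The same held for Col4a1 and Col15a1, the only basement membrane genes compared, and differences between correlations were not tested. Col1a1 had r = 0.50 and rho = 0.42 (permutation p = 0.0685 and 0.136, adjusted 0.089 and 0.169), Col4a1 r = 0.26 and rho = 0.27 (adjusted permutation p = 0.375 and 0.348), and Col15a1 r = 0.36 and rho = 0.34 (adjusted permutation p = 0.225 and 0.253). Without the aldosterone 1 h and control 0.5 h arrays their r was 0.47, 0.12 and 0.58, and within the second day 0.70, 0.74 and 0.68. Among fibroblast genes, Postn, the matricellular protein periostin, had r = 0.84 and rho = 0.88, Fn1 (fibronectin) r = 0.83 and rho = 0.80, Lum (the fibril proteoglycan lumican) r = 0.82 and rho = 0.86, and Dcn (decorin) r = 0.76 and rho = 0.82, with adjusted permutation p of 0.000858, 0.000858, 0.000858 and 0.00282 for r and 0.00078, 0.00197, 0.00078 and 0.00192 for rho. Without the aldosterone 1 h and control 0.5 h arrays their r was 0.75, 0.70, 0.73 and 0.75, and within the second day 0.92, 0.87, 0.87 and 0.68.

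The only atrial marker and the only fat marker compared also varied with Col3a1. The atrial marker Myl7 had r = 0.63 and rho = 0.70 (adjusted permutation p = 0.0215 and 0.0108), which was 0.51 without the arrays named above and 0.24 within the second day. The fat marker Adipoq had r = 0.66 and rho = 0.63 (adjusted permutation p = 0.0183 and 0.0275), 0.47 without them and 0.76 within the day. The Gapdh ratio had r = 0.42 and rho = 0.42 (adjusted permutation p = 0.161 and 0.169), 0.19 without them and 0.31 within the day. Leaving out both 1 h arrays, which carry lung transcripts, r was 0.77 for Col1a2, 0.80 for Postn, 0.63 for Myl7 and 0.58 for Adipoq. The part of atrial and fat tissue in the collagen levels was not tested.

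Genes that make, cross-link or bind collagen were read from 6 lists with 56 tested genes. In the comparisons of aldosterone with control none was called. At an unadjusted p under 0.05 they gave 0 over all times (0%, against 4.43% of all probe sets), 10 over 0.5 to 2 h (17.9%, against 10.2% of all probe sets) and 4 over 3 to 5 h (7.14%, against 3.30%). The median overall difference was 0.00 for 21 biosynthesis and processing genes (11 above 0), 0.16 for 3 lysyl oxidases (3 above 0), 0.08 for 7 fibril proteoglycans (6 above 0), 0.00 for 12 basement membrane partners (6 above 0), 0.04 for 4 collagen receptors (2 above 0) and 0.14 for 9 TGF-beta ligands and fibrosis targets (7 above 0), against 0.01 for all probe sets.

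Postn had 11.93, 12.88, 12.57, 12.41, 12.77, 12.23 and 12.05 on aldosterone arrays at 0.5 to 12 h, against 11.47, 12.25, 12.04, 11.98, 12.31, 11.79 and 12.82 on control arrays. The aldosterone array was the higher at all times up to 5 h and the lower at 12 h. Its difference was 0.54 ± 0.12 over 0.5 to 2 h and 0.44 ± 0.12 over 3 to 5 h (limma adjusted p = 0.426 and 1.00). Tgfb1, the ligand known to induce fibrillar collagen, had 11.82, 10.25 and 10.32 on aldosterone arrays at 0.5, 1 and 2 h, against 12.26, 11.40 and 11.26 on control arrays. Its difference over these hours was −0.84 ± 0.22 (adjusted p = 0.426). At 3, 4 and 5 h it had 11.72, 11.19 and 10.73 on aldosterone arrays, against 11.14, 10.40 and 10.97 on control arrays, a difference of 0.38 ± 0.22 (adjusted p = 1.00). The later minus earlier difference was 1.22 ± 0.31 (adjusted p = 0.737). The Gapdh ratio also differed between arms. It was −0.23, 3.31 and 3.36 on aldosterone arrays at 0.5, 1 and 2 h, against −0.17, 0.78 and 0.35 on control arrays. At 3, 4 and 5 h it was −0.14, 2.17 and 1.28 with aldosterone, against 0.52, 3.21 and 0.47 in the controls. Its part in the Tgfb1 differences was not tested. Loxl1, a collagen and elastin cross-linking enzyme, differed by 0.47 ± 0.16 over 3 to 5 h (adjusted p = 1.00).

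Over time 2 of the 56 partner genes were called (3.57%, against 1.92% of all probe sets). Ccn2, a matricellular fibrosis target, had 12.46 and 13.99 on aldosterone arrays at 0.5 and 4 h, against 12.50 and 13.64 on control arrays (limma adjusted p = 0.0322). P3h2, a collagen prolyl 3-hydroxylase, was low on both 1 h arrays, with 8.69 with aldosterone and 8.61 in the control, and 9.49 to 10.73 on the other timed arrays (adjusted p = 0.0368). Both 1 h arrays carried lung transcripts, whose part in this value was not tested. None was called for the trend or at 12 h. Serpinh1, the collagen chaperone HSP47, had 13.58 with aldosterone and 13.25 in the control at 12 h, both under its other timed arrays (13.86 to 14.60). Its 12 h difference was −0.88 ± 0.18 (adjusted p = 0.0878). Plod1, a collagen lysyl hydroxylase, had −0.82 ± 0.28 in the same comparison. Both genes were lower on all 6 arrays with the highest Gapdh 3′ to 5′ ratio, which include both 12 h arrays, than on the other 9. Serpinh1 had 13.25 to 14.17 on these 6 and 14.32 to 14.60 on the other 9, and Plod1 had 11.24 to 12.23 and 12.36 to 12.85. This order was seen in 2.1% of all probe sets. The part of RNA quality in the 12 h values was not tested. Lox, which cross-links collagen, had a slope of 0.22 ± 0.05 per h over 0.5 to 5 h (adjusted p = 0.14).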

How the data were processed

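The authors deposited linear probe set signal intensity values, 1 per array, for which the submitters' processing notes name GCOS 1.2. The summary algorithm is not given in the sources used here. Each deposited array has a 2% trimmed mean of 1500 and a median of 413.8 to 741.4, and the number of arrays limits the precision. Values were taken as log2(signal + 167.8, the 25th percentile), quantile normalised and filtered at a mean signal of 526.7. Tests used limma 3.58.1 in R 4.3.3 (variance trend, Benjamini-Hochberg over 22286 probe sets, threshold 0.05), tested on simulated data. Adding the pseudocount understates changes of low genes. The aldosterone fits had time as a block, and the windows, slopes and 12 h comparison were contrasts over times. Of the probe sets 34958 had 1 annotated symbol, 932 several and 9211 none, and only the first were named. Scan day and station came from the experiment files. Permutations used scipy 1.17.1 and figures matplotlib 3.10.9. The members and gene lists were chosen with earlier results of these data known. Values per arm are given for a fixed set of main collagens and for up to 4 members per comparison with the smallest p, and of each partner list up to 3 genes per comparison. The values of Col4a4, Col4a5, Col4a6, Col5a3 and Col27a1 fall under the second part. Alternatives were the deposited scaling, a pseudocount of 16, no filter, no variance trend, the Gapdh ratio as a covariate, scan day, 1 value per time, no time block, the median probe set, and leaving out each pair.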

Additional observations from a re-analysis of the deposited data

Results flagged for a closer look

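In 7 of 50 gene and arm combinations, 1 array stood apart from the other 6 by a gap of more than 0.568 of the arm's range. On aldosterone arrays these were Col15a1, a basement membrane zone collagen, with 11.64 at 12 h (nearest 12.12), and Col27a1, a minor fibrillar collagen, with 9.93 at 12 h (nearest 10.74). The other aldosterone cases were Col16a1 with 9.36 at 2 h (nearest 10.09), Col20a1 with 8.92 at 1 h (nearest 10.08) and Col25a1 with 8.67 at 3 h (nearest 9.86). On control arrays they were Col5a3 with 10.26 at 12 h (nearest 11.08) and Col6a1 with 13.21 at 12 h (nearest 12.80). Of the 7, 6 were single low arrays, and 4 came from the 12 h arrays. All values are log2 signals. The nominal rate of this rule, about 1 in 20, holds for replicates, whereas the 7 arrays of an arm differ in time, scan day and Gapdh ratio. The share over all probe sets was not counted, so the count of 7 does not set the collagens apart.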

How the results depend on the processing

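The count of called collagens was 0 in every comparison and stayed 0 under all alternatives run except for the differences between times. There it was 1 with the deposited scaling (Col5a3) and 0 to 1 when each pair was left out (Col4a1 without the 12 h pair). In the other 7 comparisons it ranged between 0 and 0 over left-out pairs. The overall difference changed sign for Col18a1 with the deposited scaling (−0.0304) and the Gapdh covariate (−0.0267), for Col4a1 with the deposited scaling (0.018), and with the Gapdh covariate for Col1a1 (−0.000517) and Col5a1 (−0.0197). Over left-out pairs it ran between −0.15 and 0.0312 for Col15a1, −0.033 and 0.15 for Col18a1, −0.15 and 0.16 for Col1a1, −0.10 and 0.11 for Col4a1, −0.0157 and 0.12 for Col5a1, −0.00198 and 0.14 for Col6a1, and −0.12 and 0.20 for Col8a1. The slope difference of Col4a1 ran between −0.00713 and 0.0851 per h. The median fibrillar difference ran between 0.01 (without 1 h) and 0.21 (without 12 h), and that of basement membrane genes between −0.05 and 0.08. Over all probe sets, the 429 time calls became 239 without the filter, 39 without the variance trend, 219 with the Gapdh covariate, 109 with scan day and 91 to 909 over left-out pairs. The 34 trend calls became 13 without the variance trend, 103 with the Gapdh covariate, 0 with 1 value per time and 1 to 34 over left-out pairs. The 14 calls at 12 h became 33 with a pseudocount of 16, 25 without the filter, 1 with the Gapdh covariate, 1 with scan day, 0 with 1 value per time and 2 to 21 over left-out pairs. With the 0.5 h pair left out, the calls over 0.5 to 2 h numbered 227 and there were 37 for the later minus earlier difference, with no collagen among either. The cause of these shifts was not tested. The trend, slope and 12 h comparisons without the 12 h pair were not run. The relations of Col3a1 without the 1 h arrays and the second probe sets were added after seeing the data. Signals under the minimum leave 17 collagens untested.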

Other observations

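The second probe set of Col4a1, which was not the one with the highest signal, was lower on all 6 arrays with the highest Gapdh 3′ to 5′ ratio (13.89 to 14.13) than on the other 9 (14.32 to 15.08). Of the 22286 probe sets tested, 469 (2.1%) had this order, and it was the only collagen probe set among them. The main probe set of Col4a1 had 15.16 to 16.07 on the same 6 arrays and 15.52 to 16.53 on the other 9, which overlap.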
